A study of Mus musculus with 7 samples.

Results

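The 10 genes described here are made by the fibroblasts of the leptomeninges, the inner membranes that cover the brain. They are the collagen genes Col1a1 and Col1a2, the proteoglycan genes Lum, Dcn and Ogn, the growth factor gene Igf2 and its binding protein gene Igfbp2, the transporter genes Slc13a4 and Slc6a13, and the prostaglandin synthase gene Ptgds. They were taken by name, with no threshold on their levels, from a table of 27583 genes, and all 10 were found in it. The table gives RNA levels in 7 libraries from the hippocampus of male C57BL/6 mice (C57BL6/J in the sample titles) of genotype WT, as FPKM (fragments per kilobase of gene and of mapped fragments in the library). The series set injured animals (spinal cord injury) against healthy controls, but the labels of the 7 samples are alike and give neither injury status nor age. All libraries therefore stand in 1 group as replicates 1 to 7, injured and healthy animals were not compared, and levels are given by library or as lowest, median and highest.

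Leptomeningeal fibroblasts lie on the brain surface and follow penetrating vessels. They secrete a matrix of type I collagen and small leucine-rich proteoglycans, growth factors into the cerebrospinal fluid, and they carry transporters that move solutes between that fluid and the tissue. The parenchyma of the hippocampus holds few fibroblasts, and several of the 10 genes are also made elsewhere in the brain. Igf2, Igfbp2 and Slc13a4 are also made by the choroid plexus epithelium, which secretes cerebrospinal fluid, and Ptgds by oligodendrocytes. In tissue RNA such as this, fewer cells of a type and less RNA per cell cannot be told apart.

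The depth estimated from the table was 37324400 to 38448100 reads per library. The labels do not tie the libraries to separate animals, so a p-value across libraries reflects their spread alone, part or all of which may be technical. Part of the spread may also follow injury status, which the labels do not give, and this was not tested. The exact permutation p given below treats the 7 libraries as interchangeable, which a hidden difference between injured and healthy animals would break. Replicate 5 stands apart: its summed FPKM over 10 genes of striatal projection neurons was 1725, against at most 62.2 in the other libraries, and its sum over 8 hippocampal neuron genes was 395, against at least 646. The correlations named below among the 10 genes and with cell type lists are therefore also given without it. The defining fibroblast markers Lum and Dcn were detected in every library, with lowest levels of 1.15 and 10.1 FPKM.

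Promoter sequences of 7 of the 10 genes were at hand in RefSeq (GRCm38.p6), with 13 starts between them. Lum, Dcn and Col1a1 had none at hand. Shown are those of Col1a2, Slc13a4 and Igf2, which with Col1a1 form the group of genes that moved most closely together, and that of Ptgds is set beside them as the gene with the highest level. Each is the 250 bases before the RefSeq start. The gene positions given further on are from GENCODE, and the starts of the 2 sources differ. The printed stretches of Col1a2, Igf2 and Ptgds lie inside the GENCODE gene bounds, and that of Slc13a4 overlaps their edge. Capitals mark the letters CCAAT and GGGCGG, searched on both strands, so that ATTGG and CCGCCC also count; in these sequences no motif overlaps another.
Col1a2, chr6:4505368-4505617, plus strand: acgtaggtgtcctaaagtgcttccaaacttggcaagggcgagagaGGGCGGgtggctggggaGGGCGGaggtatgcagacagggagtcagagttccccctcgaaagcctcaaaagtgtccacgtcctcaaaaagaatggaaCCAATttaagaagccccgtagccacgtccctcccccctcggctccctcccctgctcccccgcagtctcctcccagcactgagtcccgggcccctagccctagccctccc
Slc13a4, chr6:35308127-35308376, minus strand: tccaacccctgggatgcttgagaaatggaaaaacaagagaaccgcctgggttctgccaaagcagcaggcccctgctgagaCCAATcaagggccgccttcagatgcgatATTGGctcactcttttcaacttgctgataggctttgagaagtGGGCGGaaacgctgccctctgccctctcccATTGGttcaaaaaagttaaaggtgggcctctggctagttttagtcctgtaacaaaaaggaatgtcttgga
Igf2, start 4 of 4, chr7:142657497-142657746, minus strand: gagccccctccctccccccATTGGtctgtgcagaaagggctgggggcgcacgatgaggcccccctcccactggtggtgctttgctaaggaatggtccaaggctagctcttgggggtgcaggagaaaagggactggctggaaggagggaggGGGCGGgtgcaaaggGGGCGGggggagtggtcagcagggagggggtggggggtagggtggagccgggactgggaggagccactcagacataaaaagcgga
Ptgds, chr2:25469750-25469999, minus strand: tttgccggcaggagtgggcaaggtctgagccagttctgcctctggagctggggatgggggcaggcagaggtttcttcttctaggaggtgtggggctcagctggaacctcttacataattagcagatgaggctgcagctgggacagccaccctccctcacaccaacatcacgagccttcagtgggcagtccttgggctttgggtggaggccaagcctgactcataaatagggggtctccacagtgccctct

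CCAAT is the sequence read by the factor NF-Y, and GGGCGG is the core of the GC box. Both stood in 3 of the 13 promoters, which were the printed ones of Col1a2, Slc13a4 and Igf2, and in 11% of all 32851 mouse promoters of the same length. CCAAT alone or with the other stood in 33.8% of all promoters and GGGCGG in 32.7%. Each motif by itself was not confined to the printed promoters. Of the 7 genes, 4 had CCAAT and 5 had GGGCGG at 1 start or more. Igfbp2 had 3 GGGCGG at start 1, and Slc6a13 had 2 GGGCGG at start 1 and 1 CCAAT at start 2. The Slc13a4 promoter held 3 CCAAT letters and 1 GGGCGG, that of Col1a2 held 1 and 2, and that of Igf2 held 1 and 2. The Igf2 start was picked after its motifs had been seen, the other 3 Igf2 starts do not hold both motifs, and the gene level FPKM does not tell which start was used. The Ptgds promoter held neither set of letters. A match is a description of the sequence and is no test of binding.

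All 10 genes had a median level of at least 1 FPKM, from 1.05 for Col1a1 to 334 for Ptgds. For most of them the spread between libraries was wide. The SD of log2(FPKM + 1) had a median of 0.34 over the 10 genes, against 0.12 over the 12052 genes with a median of at least 1 FPKM. All 10 lay above that median, and 7 were among the 10% of genes with the largest SD. Against the 1000 genes nearest in level, Lum had a larger SD than only 46.4%, Col1a1 than 76.4% and Ogn than 83.4%. The other 7 genes had a larger SD than 93% to 99.8%. With reads estimated from the table, the 95% exact Poisson intervals of the lowest and the highest library did not overlap for 10 of 10 genes. For Lum the facing bounds were 1.41 and 1.60 FPKM. The 2 libraries were picked as the extremes of 7, and the same count was not made over all genes. It therefore does not set the 10 genes apart. Such intervals cover counting error only.

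**Figure D1:**
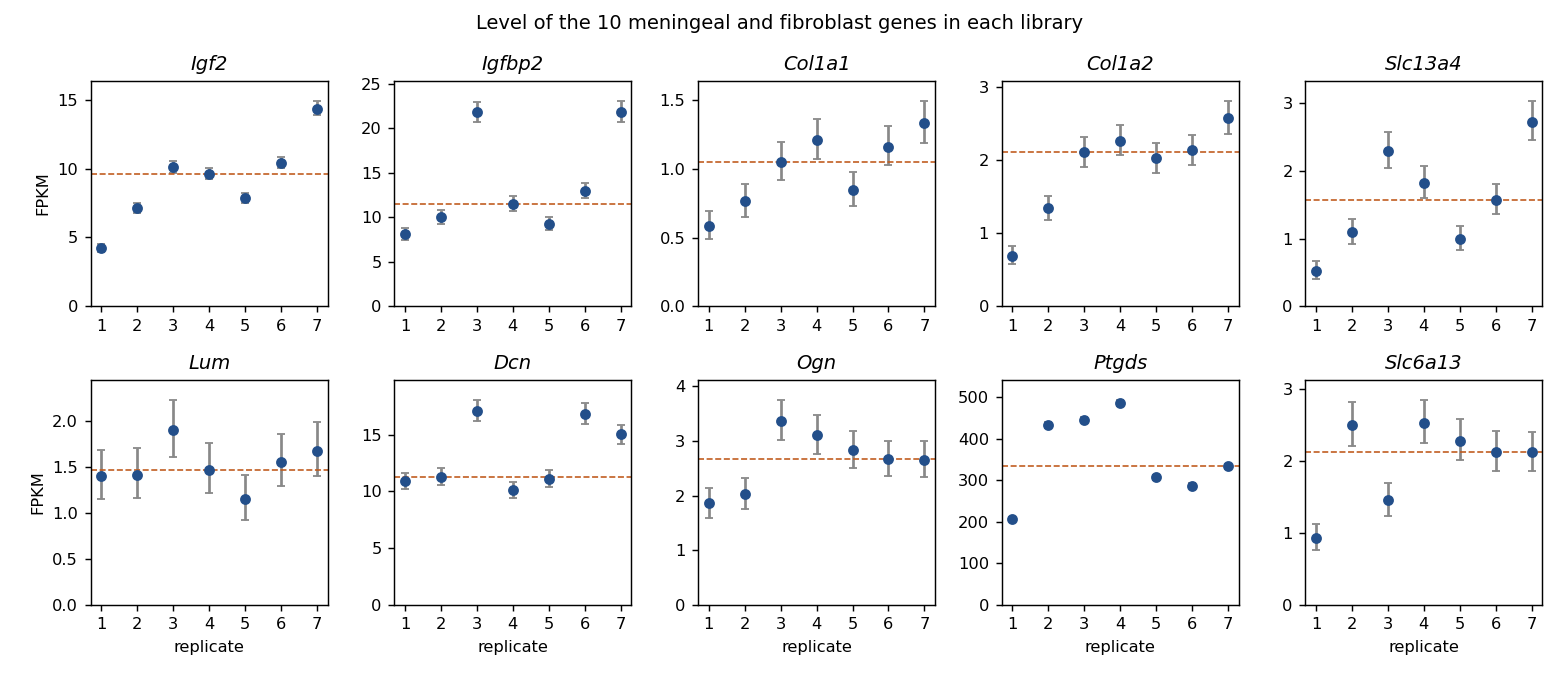
FPKM of each of the 10 genes (vertical axes, from 0) in replicates 1 to 7 (horizontal axes). Points are single libraries, bars are 95% exact Poisson counting intervals from the estimated reads, and the dashed line is the median; replicate 1 is the lowest library in 8 of the 10 panels.

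The collagen genes Col1a1 and Col1a2 encode the 2 chains of type I collagen, the main fibre of connective tissue. Col1a1 (GENCODE on mm10, chr11:94936224-94953042, plus strand) had 0.587, 1.05 and 1.33 FPKM as its lowest, median and highest level, from an estimated 132 to 301 reads. Col1a2 (chr6:4504814-4541544, plus strand) had 0.692, 2.11 and 2.57 FPKM, from 137 to 511 reads. Both were lowest in replicate 1 and highest in replicate 7, and the libraries stood in the same order for both. Per length, Col1a2 stood at 1.18 times the Col1a1 level in replicate 1 and at 1.75 times or more in the other libraries, with a median of 1.87 and a highest ratio of 2.39 in replicate 5. Without replicate 1 the highest-to-lowest ratio of Col1a2 dropped to 1.92, against 3.71 with all libraries. Col3a1, the chain of type III collagen that co-assembles with type I, was scarcer than both, with 0.152 FPKM in replicate 1 as its lowest level and 0.954 FPKM in replicate 6 as its highest.

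Of 16 listed genes of collagen synthesis and cross-linking, 12 had a median of at least 1 FPKM, and 1 of these 12, Pcolce, was lowest in replicate 1, the lowest library of 9.06% of all genes. Pcolce encodes the enhancer of the proteinase that trims procollagen. It had 1.096 FPKM in replicate 1, a median of 2.43 FPKM, and 4.60 FPKM in replicate 3. Serpinh1, the collagen chaperone, was lowest in replicate 2 with 4.96 FPKM and highest in replicate 7 with 10.3 FPKM. P4hb, a subunit of the prolyl hydroxylase that other cells use as well, had 37.1 to 42.3 FPKM. The median r of these 12 genes with Col1a1 was 0.0217, beside 0.0391 over all genes. With Lum it was 0.422, beside 0.104 over all genes. Lum and the summed FPKM of the 16 listed genes were both lowest in replicate 5. Lum had r of 0.774 and Spearman's rho of 0.429 with that sum, and r of 0.565 without replicate 5. The median r of the 12 genes with Igf2, Slc13a4, Col1a2, Ogn, Ptgds and Slc6a13 lay between -0.176 and 0.0659. The chains of the basement membrane, Col4a1 and Col4a2, had ranges of 4.59 to 7.79 FPKM and 4.96 to 8.61 FPKM and were lowest in replicate 5.

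Lum, Dcn and Ogn encode lumican, decorin and osteoglycin, small leucine-rich proteoglycans that bind collagen fibrils or growth factors in the matrix. Lum (chr10:97565128-97572703, plus strand) had 1.15, 1.47 and 1.89 FPKM as its lowest, median and highest level, from 90 to 150 reads, and was the least variable of the 10 genes, with an SD of 0.13. Its lowest library was replicate 5 and its highest replicate 3. Dcn (chr10:97479609-97518143, plus strand), which lies 47.0 kb from Lum, had 10.1, 11.3 and 17.1 FPKM. The Dcn libraries fell into separate sets, with replicates 3, 6 and 7 at 15.01 FPKM or more and the other 4 at 11.3 FPKM or less, so no correlation over all libraries is given for it. Per length, Dcn stood between 6.87 times the Lum level in replicate 4 and 10.8 times in replicate 6.

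Ogn (chr13:49608046-49624501, plus strand) had 1.86, 2.66 and 3.37 FPKM. Replicates 1 and 2 were low, with 1.86 and 2.02 FPKM, and the other 5 libraries had at least 2.66 FPKM. Ogn lies in a cluster with related genes on chromosome 13, and these did not share its level. Omd, 15.2 kb away, which encodes osteomodulin, had at most 0.364 FPKM and was near 0 in replicates 1 and 2, with 0.0129 and 0.0131 FPKM. Aspn, 40.5 kb away, had 0.406 to 1.02 FPKM, and Ecm2, 75.3 kb away, had 1.15 to 1.90 FPKM. Among 11 listed genes of this family, 4 had a median of at least 1 FPKM. Fmod, which encodes fibromodulin, had 0.540 FPKM in replicate 1 and 2.83 FPKM in replicate 4. Prelp was lowest in replicate 5 with 3.51 FPKM and highest in replicate 2 with 9.75 FPKM.

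Igf2, a growth factor of fetal tissues that persists in the adult leptomeninges and choroid plexus, had 4.24, 7.16, 10.1, 9.63, 7.87, 10.4 and 14.4 FPKM in replicates 1 to 7. Its gene (chr7:142650766-142666816, minus strand) is imprinted. The level in replicate 7 was 3.39 times that in replicate 1, from 917 to 3123 reads, and 2.01 times that of the next lowest library when replicate 1 was left out. An antisense gene, Igf2os, overlaps it over 7.1 kb and had at most 0.0441 FPKM; without a stated strand setting the reads of the 2 genes cannot be told apart. The imprinted neighbour H19, 72.6 kb away, had 0.0461 to 0.162 FPKM and was also lowest in replicate 1.

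Igfbp2 (chr1:72824503-72852474, plus strand), which encodes a binding protein for insulin-like growth factors, had 8.09, 10.01, 21.9, 11.5, 9.26, 13.0 and 21.9 FPKM in replicates 1 to 7. Replicates 3 and 7 formed a separate high set, 1.68 times above the next library. Its SD of 0.54 was the widest of the 10 genes. Of 13 other genes of the insulin-like growth factor system, 8 had a median of at least 1 FPKM. Of these 8, 0 were lowest in replicate 1, beside 9.06% of all genes. Igf2r, which takes up and clears Igf2, had 3.86 to 4.66 FPKM, and the receptor gene Igf1r had 3.49 to 4.96 FPKM. Igf1 had 0.704 to 1.19 FPKM. The widest of the 8 was Igfbp7, from 14.2 FPKM in replicate 6 to 23.1 FPKM in replicate 2.

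Slc13a4 (chr6:35267957-35308131, minus strand) encodes a sodium-coupled sulfate transporter. It had the largest relative range of the 10 genes, 5.21-fold, with 0.523 FPKM in replicate 1, a median of 1.57 FPKM and 2.73 FPKM in replicate 7. These rest on 68 to 356 reads. Without replicate 1 the ratio was 2.73. Slc6a13 (chr6:121300227-121337733, plus strand) encodes the transporter GAT2, which takes up GABA and taurine. It had 0.927, 2.12 and 2.53 FPKM as its lowest, median and highest level. Replicates 1 and 3 were low, with 0.927 and 1.45 FPKM, and the other 5 libraries lay between 2.12 and 2.53 FPKM. Without replicate 1 the highest-to-lowest ratio of Slc6a13 was 1.75, against 2.73 with all libraries. Among 8 related transporters, 7 had a median of at least 1 FPKM. Of those 7, 4 were lowest in replicate 1, beside 9.06% of all genes. Slc6a20a, a proline carrier, was 1 of these 4, with 3.08 FPKM in replicate 1 and 6.54 FPKM in replicate 4. Slc6a11, the astrocyte GABA transporter GAT3, had 28.6 FPKM in replicate 1 and 50.4 FPKM in replicate 7, whereas Slc6a8, the creatine transporter, had 19.9 to 22.5 FPKM.

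Ptgds (chr2:25466709-25470046, minus strand) encodes the lipocalin-type synthase of prostaglandin D2, one of the most abundant proteins of cerebrospinal fluid. It had 207, 434, 446, 486, 307.5, 287 and 334 FPKM in replicates 1 to 7, from 7294 to 17325 reads. Replicates 2, 3 and 4 were high, replicate 1 low, and replicate 7, in which Igf2 and the collagens were highest, was at the median. Of 8 other genes of prostaglandin synthesis and response, 5 had a median of at least 1 FPKM. Of the 5, 1 gene, Ptges2, was lowest in replicate 1, beside 9.06% of all genes. Ptgs2, which encodes the inducible cyclooxygenase, had 4.08 FPKM in replicate 5 and 8.59 FPKM in replicate 1. Hpgds, the other synthase of prostaglandin D2, had 1.13 to 1.69 FPKM.

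Across the 10 genes, replicate 1 was the lowest library for 8, the exceptions being Lum and Dcn. Of all 12052 genes, 9.06% were lowest in replicate 1. The high end was divided. Replicate 7 was highest for Igf2, Slc13a4, Col1a1, Col1a2 and Igfbp2, beside 12.9% of all genes. Replicate 3 was highest for Lum, Dcn and Ogn, beside 15.1%, and replicate 4 for Ptgds and Slc6a13, beside 15.6%. Replicate 5 was highest for 0 of the 10 genes, beside 21.1%, and lowest for Lum alone, beside 26.0%. Dcn was lowest in replicate 4, beside 20.1%. The mean of the 10 z-scores was -1.43 in replicate 1, between -0.37 and 0.34 in replicates 2, 4, 5 and 6, and 0.75 and 0.78 in replicates 3 and 7.

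Replicate 1 differed in other lists too. Of 30 further fibroblast genes, 16 had a median of at least 1 FPKM and 8 of these were lowest in replicate 1. So were 7 of 10 endothelial genes and 6 of the 9 pericyte and smooth muscle genes with such a median, and 0 of 10 oligodendrocyte genes. The counts for the other cell type lists were 1 of 6 choroid plexus, 2 of 10 astrocyte, 2 of 6 striatal neuron and 0 of 6 ependymal genes. They were 0 of 7 microglial, 0 of 8 hippocampal neuron, 0 of 2 arachnoid barrier and 0 of 5 blood genes. All 5 blood genes were highest in replicate 1, beside 9.08% of all genes. Their summed level there was 288 FPKM, against 91.6 to 206 FPKM in the other libraries. The part of these cell types in the levels of replicate 1 was not tested.

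How the genes moved together was measured by Pearson's r of log2(FPKM + 1) over the 7 libraries for the 8 genes whose libraries did not fall into separate sets, which gives 28 pairs. All pairs share the same 7 libraries and their depth and composition. Of the 28 coefficients, 27 were positive, and the median was 0.58. Of all genes, 45.4% had a positive r with Slc6a13, the lowest share of the 8 genes, and 58.3% with Lum, the highest. The median over all gene pairs with these 8 genes was 0.02. Without replicate 1 the median dropped to 0.34, and without replicate 5 it was 0.63.

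**Figure D2:**
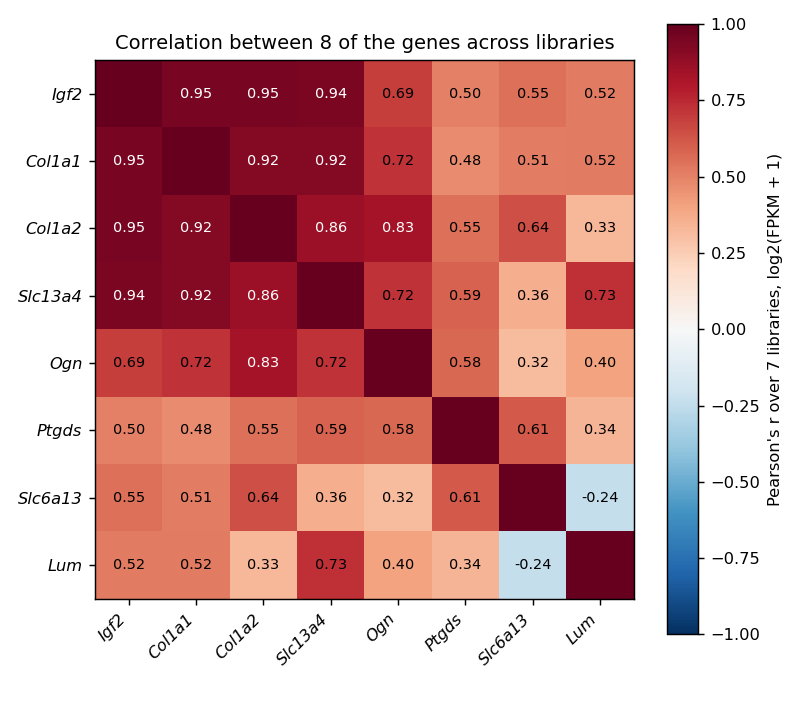
Pearson's r of log2(FPKM + 1) over 7 libraries for each pair of 8 genes, with red for positive and blue for negative values. The 4 genes at the upper left, Igf2, Col1a1, Col1a2 and Slc13a4, have r of 0.86 to 0.95 with each other, and the only negative value is that of Lum with Slc6a13.

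The closest group was Igf2, Slc13a4, Col1a1 and Col1a2. Its 6 pairs had r of 0.86 to 0.95 and Spearman's rho of 0.86 to 1, with unadjusted exact two-sided permutation p of 0.000198 to 0.00496, and r of 0.72 to 0.92 without replicate 1 and 0.916 to 0.981 without replicate 5. Without the 2 libraries farthest from the median of the first gene of a pair, r lay between 0.578, for Slc13a4 with Col1a2, and 0.926, for Igf2 with Col1a1. Igf2 and Col1a1 had the highest r, 0.953 (exact permutation p = 0.000992, rho 0.893). Among 12051 other genes ranked by r with Igf2, Col1a1 was number 3, Col1a2 number 6 and Slc13a4 number 7. Col1a1 and Col1a2 had r of 0.921 with a rho of 1, and exact permutation p of 0.000198 for r, which is the smallest that 5040 pairings can give.

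None of the 28 pairs passed the adjustment over all genes. By limma-trend, with the level of 1 gene as the predictor of every other gene and Benjamini-Hochberg adjustment, the smallest adjusted p of a pair was 0.356, 0 pairs passed in both directions, and 11 had an unadjusted p under 0.05 both ways with a positive slope. By the exact permutation test 7 pairs had an unadjusted p under 0.05 and 0 passed the adjustment. The smallest exact p for 7 libraries is 0.000198, so over 12051 genes 1 pair could not pass unless many genes shared that p. The 0 from the exact test was therefore all but fixed in advance and says little about the pairs. Unadjusted limma-trend calls at p under 0.05 with a positive slope among the co-members can be read against the share of all genes called. Igf2 had 4 of 7 co-members, beside 2.0% of all genes, and Slc13a4 had 4, beside 2.11%. Col1a1 had 4, beside 1.36%, Col1a2 had 5, beside 1.81%, and Ogn had 4, beside 1.21%. Lum had 1, beside 3.62%, Slc6a13 had 1, beside 0.440%, and Ptgds had 0, beside 1.68%. The exact permutation test with positive r called 3 co-members each for Igf2, Slc13a4 and Col1a1, beside 232, 235 and 171 of 12051 genes. It called 4 for Col1a2, beside 200, 1 for Ogn, beside 133, and 0 for Lum, Slc6a13 and Ptgds, beside 384, 86 and 235. At the adjusted p the share was 0 for each of the 8 genes.

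With replicate 5 left out, 5 regressions passed the adjustment over all genes by limma-trend. With Col1a2 as the predictor, Igf2 was the 1 gene that passed (r 0.974, adjusted p = 0.0248), beside 0.00830% of all genes. With Slc13a4 as the predictor 4 genes passed, beside 0.0332% of all genes. They were Igf2 (r 0.961, adjusted p = 0.0235), Zic2 (adjusted p = 0.0235), Zdhhc22 (adjusted p = 0.0353) and Slc17a6 (adjusted p = 0.0195), and Igf2 alone of these 4 is among the 10 genes. Neither regression of Igf2 passed with the predictor and the response exchanged, so no pair was called.

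Ogn stood near the collagens by r but not by rank. Col1a2 and Ogn had r of 0.833 (exact permutation p = 0.0222) and rho of 0.464, and r was 0.83 without replicate 5 but turned to -0.36 without replicates 1 and 2, the libraries farthest from the Col1a2 median. Lum was closest to Slc13a4, with r of 0.729 (exact permutation p = 0.0593) and rho of 0.893; r was 0.841 without replicate 1 and 0.763 without replicate 5. The pairs of Ptgds and Slc6a13 with the group around Igf2 depended on replicate 1. Igf2 and Ptgds had r of 0.50 with all libraries, -0.24 without replicate 1 and 0.491 without replicate 5, and Igf2 and Slc6a13 had 0.55, -0.35 and 0.598. Slc13a4 and Slc6a13, both transporter genes, had 0.365, -0.53 and 0.467 in the same order. Lum and Slc6a13 had -0.239, -0.736 and -0.116.

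Ptgds stood closest to a sum of other fibroblast genes. The summed FPKM of the 30 further fibroblast genes was 65.5, 93.0, 94.1, 104.8, 83.2, 78.6 and 85.6 in replicates 1 to 7, in the same order as Ptgds. Their r was 0.984 with a rho of 1 (exact permutation p = 0.000198, adjusted limma-trend p = 0.915), and r was 0.965 without replicate 1 and 0.987 without replicate 5. Mgp, the matrix Gla protein gene, made up 23.7% to 31.8% of that sum, and without Mgp r was 0.937. Of the 30 genes, 12 were highest in replicate 4, as Ptgds was. The other 18 were highest elsewhere, 6 of them in replicate 5 and 4 in replicate 2. Among the 12052 genes with a median of at least 1 FPKM, 15.6% were highest in replicate 4, but 14 of the 30 had a lower median. Among the 12 were Mgp, Fmod and Aldh1a2, which makes retinoic acid and had 0.699 FPKM in replicate 1 and 3.09 FPKM in replicate 4. With the sum of 10 oligodendrocyte genes, which was 1003 to 1882 FPKM and highest in replicate 7, Ptgds had r of -0.403, -0.832 without replicate 1 and -0.372 without replicate 5. Igf2 had r of 0.556 with the fibroblast sum, -0.182 without replicate 1 and 0.552 without replicate 5.

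**Figure D3:**
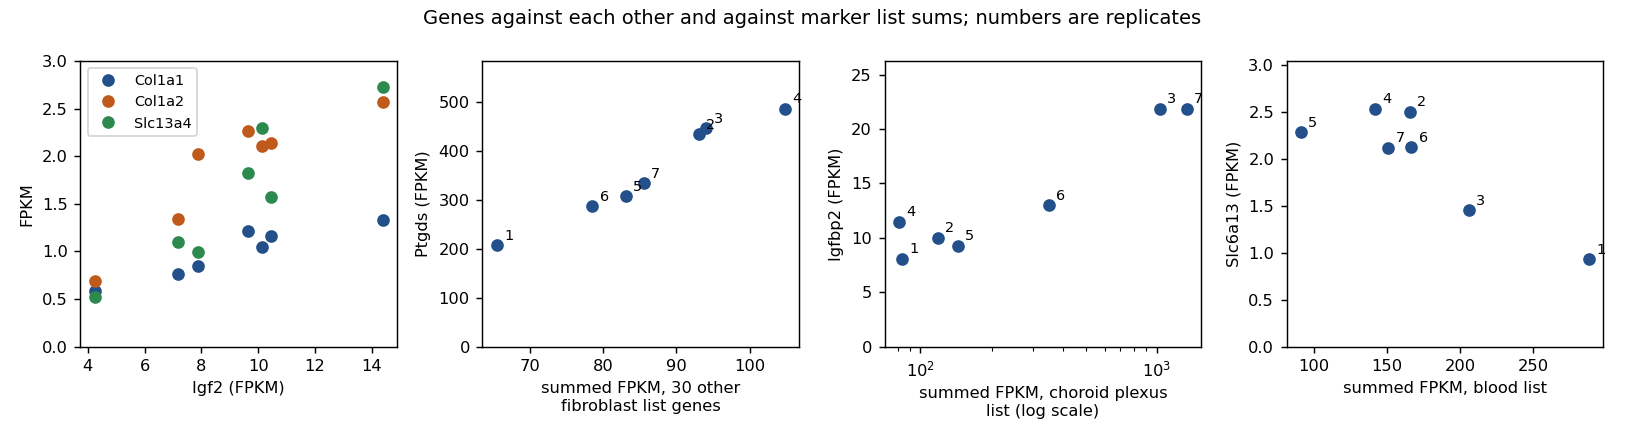
From left to right: Col1a1, Col1a2 and Slc13a4 against Igf2, Ptgds against the summed FPKM of 30 other fibroblast genes, Igfbp2 against the summed choroid plexus genes (log axis), and Slc6a13 against the summed blood genes. Each point is 1 library and numbers are replicates; Ptgds and the fibroblast sum stand in the same order in all 7 libraries.

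Markers of other cell types moved with several of the 10 genes. The summed FPKM of 15 choroid plexus genes was 1026 in replicate 3, 1337 in replicate 7 and 349 in replicate 6, and 81.1 to 144 in the other 4 libraries. These 3 libraries were the ones high in Dcn, and replicates 3 and 7 those high in Igfbp2. Ttr, transthyretin, the defining marker, had 18.0 to 1073 FPKM, and Steap1 alone of the 15 was listed at 0 in a library. The choroid plexus sum had r of 0.793 with Slc13a4 (exact permutation p = 0.0375), 0.756 with Lum (exact permutation p = 0.0458) and 0.745 with Igf2 (exact permutation p = 0.044). Without replicate 5 these were 0.784, 0.883 and 0.742, and without replicates 3 and 7 they were 0.342 for Slc13a4, 0.246 for Lum and 0.561 for Igf2. In the 5 libraries left, much of the sum was 1 gene, Enpp2. It had 56.1 of 83.9 FPKM in replicate 1, 49.4 of 81.1 in replicate 4 and 74.1 of 144 in replicate 5. In replicates 2 and 6 it had 44.5 of 118.5 and 91.95 of 349 FPKM. Over all libraries the sum had r of 0.613 with Col1a1 and 0.586 with Col1a2, or 0.595 and 0.63 without replicate 5. It had 0.146 with Ptgds and -0.05 with Slc6a13, or 0.117 and -0.00394 without replicate 5. Without replicates 3 and 7 the core pairs had r such as 0.939 for Igf2 with Col1a1 and 0.947 for Igf2 with Slc13a4, and the median over the 28 pairs was 0.757. The 7 pairs with Lum had -0.0834 to 0.435 in those 5 libraries.

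The pericyte and smooth muscle sum of 10 genes was 72.3 to 98.1 FPKM, lowest in replicate 1. It had r of 0.912 with Slc13a4 (exact permutation p = 0.00337), 0.897 with Col1a1, 0.893 with Igf2 and 0.889 with Col1a2. Without replicate 1 these were 0.849, 0.80, 0.679 and 0.593, and without replicate 5 they were 0.91, 0.892, 0.896 and 0.947. With Ptgds it had 0.812 (exact permutation p = 0.021), 0.514 without replicate 1 and 0.806 without replicate 5, and with Ogn it had 0.745, 0.458 and 0.815. Tagln, a contractile protein gene of smooth muscle, had 2.93 FPKM in replicate 1 and 8.30 FPKM in replicate 4. The ependymal sum of 8 genes, 16.0 to 36.1 FPKM, had its highest r with Lum, 0.83 (exact permutation p = 0.0183), and 0.807 without replicate 5. The blood sum had r of -0.799 with Slc6a13 (exact permutation p = 0.0266), -0.534 without replicate 1 and -0.959 without replicate 5. The sum of 5 arachnoid barrier genes was 100.5 to 166 FPKM and fell into separate sets; most of it was Cldn11, which oligodendrocytes also make. Of 144 relations of 8 genes with 18 lists, 0 passed the adjustment over all features tested by limma-trend, and the part of these cell types in the results was not tested.

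**Figure D4:**
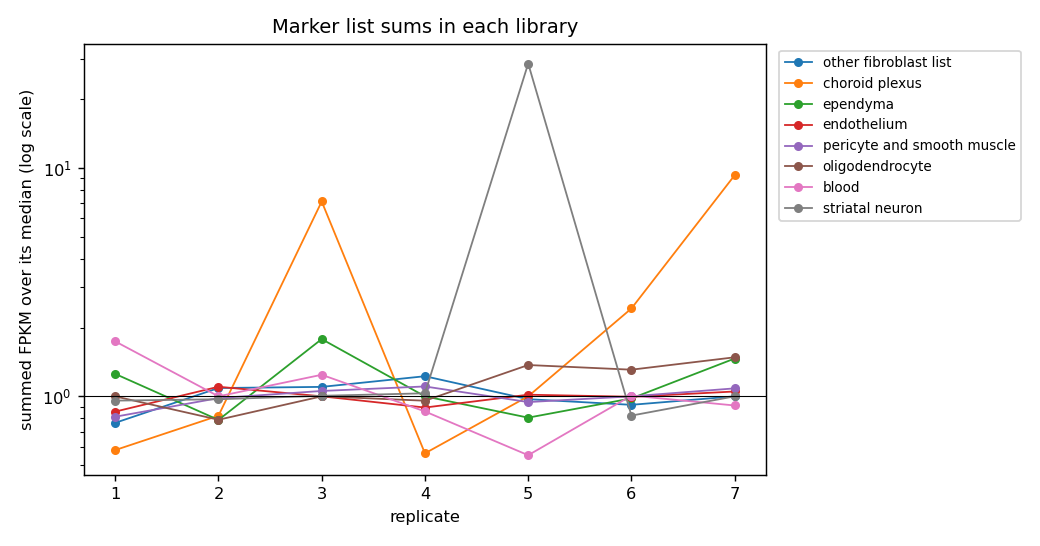
Summed FPKM of 8 marker lists in replicates 1 to 7, each divided by its own median (log axis). The choroid plexus sum is high in replicates 3, 6 and 7, the striatal sum in replicate 5 and the blood sum in replicate 1, while the sums for fibroblasts, endothelium, and pericytes and smooth muscle are lowest in replicate 1.

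Genes outside the 10 with the most similar pattern were taken by the highest r over the 7 libraries, 2 for each of the 8 genes. For Igf2 these were Ppfibp1 (liprin beta 1) with r of 0.975 and Obsl1, a cytoskeletal adaptor, with 0.954. Ppfibp1, at 3.13 to 4.57 FPKM, was also among the closest for Slc13a4 and Col1a1. Slc13a4 was closest to Plekhh2, with r of 0.986 and rho of 1. Col1a2 was closest to Obsl1 and to Ccn2, the gene of connective tissue growth factor, both with r of 0.988. Col1a1 had Aspdh beside Ppfibp1, with 0.958. Ptgds was closest to Trpm2, a cation channel gene, with 0.969 and rho of 1, and to Fam53a with 0.968. Slc6a13 was closest to Vps25, a subunit of the endosomal sorting complex, with 0.967, and to 9430021M05Rik. Ogn was closest to Gja4, which encodes the arterial connexin 37, with 0.961, and to Mical1. Lum was closest to C2cd2 and to Cenpa, the centromere histone, with 0.979 and 0.973. C2cd2 and Cenpa were lowest in replicate 5, as Lum was, with 0.871 and 0.913 FPKM, and their r without it is not given. None of these passed the adjustment over all genes by limma-trend or by the exact permutation test. For the exact test that outcome was all but fixed by its smallest possible p.

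The mean z-score of the 10 genes was most like Tgfbi, which encodes a matrix adaptor protein, with r of 0.977. Ppfibp1, Obsl1, Pcolce and Zic2 came next, with 0.970, 0.960, 0.948 and 0.944. Zic2, a zinc finger transcription factor gene, had 1.97 FPKM in replicate 1 and 5.03 FPKM in replicate 7. Its relative Zic1, of the fibroblast list and also of thalamic neurons, had 0.797 FPKM in replicate 1 and 7.71 FPKM in replicate 3.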

How the data were processed

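Per the labels' protocols, a SMARTer kit turned total RNA of 7 hippocampus samples into libraries. A single FPKM table with 27583 gene names was deposited, and its own name gives the unit. The submitters' processing notes name mm10 as the build. Not given in the sources used here are the aligner, the counting step, its annotation and filters. FPKM corrects for depth and length, not for RNA composition, so abundant genes of 1 library lower the values of others. Of the names, 26041 matched RefSeq symbols. Gene positions are from GENCODE M21 on mm10 and promoters from RefSeq.

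Columns were matched to samples by library name; condition was never inferred. FPKM was used as log2(FPKM + 1), which understates the change of low genes, over the 12052 genes with a median of at least 1. Reads were estimated from the steps of low values, with lengths from 48 genes seen in 1 library and whole reads taken within 0.005, and serve only for 95% exact Poisson intervals. Associations used limma-trend (limma 3.58.1, R 4.3.3), tested on simulated data, with Benjamini-Hochberg adjustment over all genes at 0.05, and exact two-sided permutation over 5040 pairings. A gene fell into separate sets where a gap that left 2 or more libraries on both sides took over 0.5 of its log2 range. The 10 genes, the 18 lists and these rules were chosen with earlier results of these data known. Named genes are the 10, the 2 outside genes with the highest r for each of 8 of them, the 5 with the highest r with the mean z-score, and in each list the 2 with the largest and the 1 with the smallest SD; the others named, among them gene neighbours and family members, were chosen after their values were seen. Alternatives were a pseudocount of 0.1, rescaling to a sum of 1000000, upper-quartile scaling, a median minimum of 0.1 or 5 or none, each library left out, the 2 farthest libraries left out, exact permutation over all genes, limma without the trend, and Spearman's rho. Scripts ran in Python 3.11.15 with scipy 1.17.1, numpy 2.4.6, matplotlib 3.10.9 and pandas 2.3.3.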

Additional observations from a re-analysis of the deposited data

Results flagged for a closer look

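Of 45 values examined for a library far from the other 6 (the 10 genes, the 18 list sums and 17 family genes), 2 stood out, and 0 of these were among the 10 genes. Both were in replicate 5: its summed FPKM of striatal projection neuron genes was 1725, and that of hippocampal neuron genes was 395. The limit applied is the 95% critical value of Dixon's gap ratio, which by its definition chance passes in about 1 of 20 groups. None of the 10 genes was highest in that library, and the correlations named in the text among them and with cell type lists are given with and without it.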

How the results depend on the processing

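No paired analysis was possible because all samples stand in 1 group. The number of pairs past the adjusted p was 0 under every alternative run. For exact permutation this 0 was all but fixed by the smallest p that 7 libraries can give. Alternatives added after seeing the data left out replicates 3 and 7 or replicates 1 and 5, or took the choroid plexus sum as a covariate. Under that covariate 682 of 12051 genes passed for Lum and 0 for each of the other genes with an r. Without replicates 1 and 5, 28 genes passed for Igf2, 13 for Slc13a4 and 1 for Lum. Without replicate 1, 4 genes passed for Ptgds, and without replicate 4, 1 gene passed for Slc13a4. The median r of the pairs, 0.584, ranged from 0.343 without replicate 1 to 0.705 without replicate 2. It was 0.608 with a pseudocount of 0.1, 0.605 after rescaling, 0.581 after upper-quartile scaling, 0.482 with Spearman's rho, 0.757 without replicates 3 and 7 and 0.381 without replicates 1 and 5. Rescaling moved the median of all genes by 1.43 (log2), and by 0.1 between libraries. The genes lowest in replicate 1 were 8, or 9 without replicate 4 or replicate 5. For Ogn with Col1a2, r turned to -0.36 without the 2 libraries farthest from the Col1a2 median; the cause was not tested. Without replicate 4, Slc13a4 with the choroid plexus sum passed (r 0.976, limma-trend adjusted p = 0.0338). Reads per gene, from 68 for Slc13a4 upward, and 7 libraries limit the precision.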
